A study of Mus musculus with 46 samples.

Results

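Control microglia collected 24 hr after lipopolysaccharide (LPS) were compared with control microglia collected in the absence of LPS, referred to as 0 hr. The libraries were chosen by their titles, 4 at 24 hr and 3 at 0 hr, from 24 libraries in the table of sorted cells and 46 samples in the series. All came from male wild-type C57BL/6 mice that ate vehicle chow. They are described as 2 months old, which elsewhere in the study is the age at the start of the diet, and their age at collection is not given outright. The 24 hr mice had received an intraperitoneal injection of LPS at 0.33 mg/kg, the 0 hr mice had received none, and the study mentions injections of PBS as well as LPS without stating outright that the 0 hr mice were the ones given PBS. RNA was sequenced from cells of whole hemispheres that a sort had selected as positive for the surface protein CD11b and intermediate for CD45 (CD11b+CD45int). The gate therefore used the products of Itgam (CD11b) and Ptprc (CD45), and it excludes cells with high CD45. The remaining libraries of the table are used only for reference: 5 control libraries at 6 hr after LPS, and white matter (WM) repopulating cells at 0, 6 and 24 hr. WM repopulating cells came from mice that had received the CSF1R inhibitor PLX3397 (600 ppm) for 14 days, which depletes microglia, followed by 28 days of recovery. These bulk libraries measure RNA pooled over the sorted cells, so fewer cells of a type and less RNA per cell cannot be told apart. The study calls the libraries biological replicates and defines n by mice per group, but the labels do not tie a library to a mouse. The p-values measure the spread between these libraries.

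LPS is a cell wall component of Gram-negative bacteria. Toll-like receptor 4 recognises it together with CD14 and MD-2, and signals through MyD88 to NF-kB and through TRIF to type I interferon. NF-kB drives cytokine and chemokine genes, interferon drives antiviral genes, and both pathways also induce their own inhibitors. Resident microglia at rest express a homeostatic set of genes that includes the ADP receptor P2ry12, the fractalkine receptor Cx3cr1 and the transcription factor Sall1, and inflammatory stimuli lower that set. How much of the early programme is left a day after a single systemic dose, and what replaces it, is the question the 24 hr libraries address.

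The control libraries held 6.42 to 6.89 M (mega) reads at 0 hr, 5.24 to 7.17 M at 6 hr and 6.11 to 8.50 M at 24 hr. Expression is given as FPKM, fragments scaled by gene length and by sequencing depth, and 1 read on a 2 kb gene was worth 0.0588 to 0.0819 FPKM at 24 hr, so values below about 0.2 rest on very few reads. One library stood apart from its group. The mean correlation of 24 hr replicate 4 with the other 24 hr libraries was 0.947 on the log2(FPKM + 1) scale, against 0.971 to 0.972 for replicates 1 to 3, and it sat at 45.2 on the second principal component where replicates 1 to 3 sat between -24.1 and -16.2. List counts that change without it are therefore also given without it. At 6 hr, replicate 2 had far higher chemokine levels than the other 6 hr libraries (summed FPKM 50510, against 6270 to 12200), and it enters the 24 hr test only through the shared estimate of the spread.

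Defining microglial markers were present in all libraries. Their summed FPKM was 21730, 25160 and 22800 at 0 hr, 7651 to 10140 at 6 hr, and 14070, 12780, 15670 and 12130 at 24 hr, so the 3 time points did not overlap. List counts are read against all genes tested, of which 12.1% were called higher and 9.23% lower at 24 hr. Of 12 microglial markers, 8 were lower at 24 hr, Olfml3 and Aif1 were not called, and the genes of the gate itself (Itgam and Ptprc) were higher. Without 24 hr replicate 4, 7 of the 12 were lower. Itgam stood at 108, 138 and 138 FPKM at 0 hr and at 217, 205, 206 and 190 at 24 hr (log2 fold change 0.68 ± 0.16 SE, adjusted p = 0.0042). Ptprc stood at 87.8, 90.5 and 63.0 FPKM at 0 hr and at 112, 117, 124 and 156 at 24 hr (0.66 ± 0.17, adjusted p = 0.0067), a call that is lost without 0 hr replicate 3 (adjusted p = 0.068).

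Markers of other blood cells were also measured, at levels that varied between libraries. The 15 neutrophil markers summed to 9257, 1947 and 5870 FPKM at 0 hr and to 6595, 15620, 11460 and 6953 at 24 hr, and the groups overlapped. By that sum replicate 2 was the highest 24 hr library, whereas by the mean log2 level over the 15 markers, relative to the 0 hr mean, replicate 3 (0.976) stood above replicate 2 (0.815). S100a8, which encodes a protein abundant in neutrophils, was at 4733, 1010 and 2753 FPKM at 0 hr and at 4105, 10186, 7189 and 5168 at 24 hr (log2 fold change 1.41, adjusted p = 0.18, and 0.80 with adjusted p = 0.55 without 0 hr replicate 2). Of the 15 neutrophil markers 1 was called higher (median log2 fold change 0.16), and without 24 hr replicate 4 there were 2 (median 0.83). The 13 monocyte markers summed to 155.3 to 466.5 FPKM at 0 hr, 1805 to 3433 at 6 hr and 584.9 to 789.3 at 24 hr, and 3 of them (Plac8, Ms4a4c and F10) were higher at 24 hr while 10 were higher at 6 hr. Without 24 hr replicate 4 the count of monocyte markers higher at 24 hr was 5. Of 15 markers of T, NK and B cells 1 was higher and 3 were lower, of 9 of dendritic cells 1 was higher and 3 were lower (Siglech and Klrd1 also stand on other lists, and the lower ones are Siglech, Klrd1 and Cd209a), and of 11 of border-associated macrophages 1 was higher and 1 lower. The summed T, NK and B cell markers were at 443.4 to 568.7 FPKM at 0 hr and 197.4 to 332.2 at 24 hr, but most of that sum is Ighm, the immunoglobulin mu chain, and the groups overlapped without it (70.17 to 116.6 and 79.15 to 139.2). Ighm itself was at 452, 499 and 350 FPKM and then at 169, 191, 210 and 109 (log2 fold change -1.37 ± 0.29, adjusted p = 0.0013). Markers of brain cells were low: at 24 hr the 4 lists for astrocytes, oligodendrocytes, neurons and oligodendrocyte precursors summed to no more than 55.3 FPKM each, with 1 called lower in each of the first 3 and none in the last. None of the tested markers of endothelial cells and pericytes or of ependyma and choroid plexus was called, and no erythrocyte marker passed the filter on low values. The part of these other cells in the changes below was not tested.

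**Figure D1:**
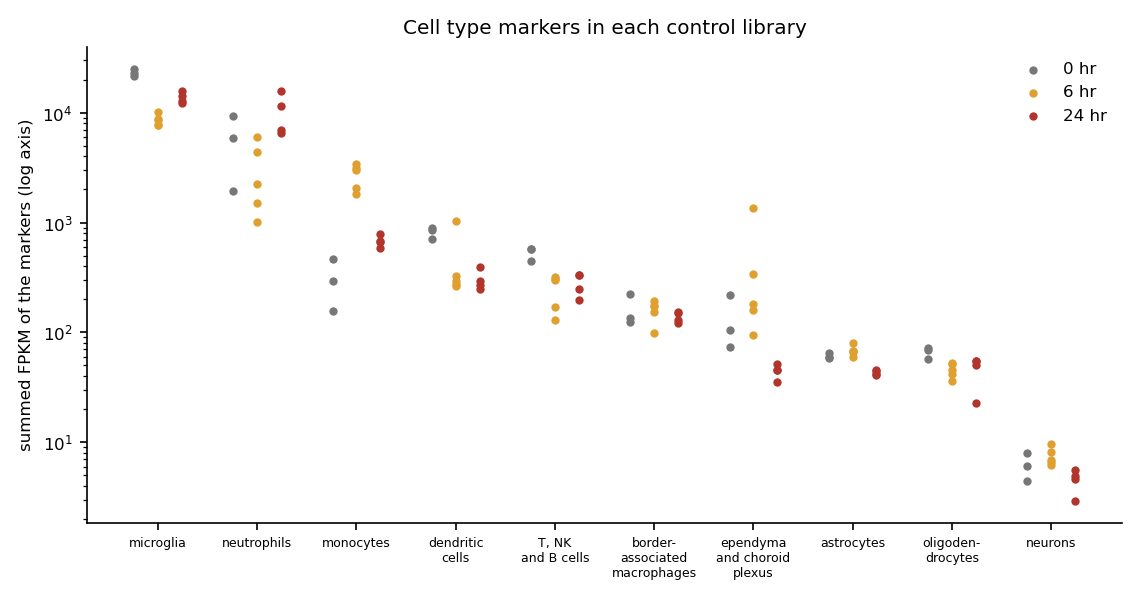
Summed FPKM (log axis) of the markers of each cell type in every control library at 0, 6 and 24 hr, 1 point per library. Microglial markers fall into 3 separate ranges, highest at 0 hr (21730 to 25160) and between at 24 hr (12130 to 15670), monocyte markers at 24 hr (584.9 to 789.3) lie below those at 6 hr (1805 to 3433), and neutrophil markers overlap between 0 and 24 hr.

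A day after LPS control microglia differed from baseline at 2708 of 12684 genes tested (21.3%). Of these 1537 (12.1%) were higher and 1171 (9.23%) were lower, with differentially expressed genes (DEGs) called at an adjusted p under 0.05. The median log2 fold change was 0.90 among the higher DEGs, -0.84 among the lower DEGs and 0.01 among all genes, on the log2(FPKM + 1) scale used throughout, which understates the change of low genes. A log2 fold change above 1 was reached by 665 of the higher DEGs and one below -1 by 397 of the lower DEGs. Without 24 hr replicate 4 there were 1429 higher and 989 lower DEGs, of which 1254 and 871 are among those of the full set, and none turned direction. The 24 hr libraries lay entirely above or below the 0 hr libraries at 29.5% of genes, 2006 above and 1736 below. Of the 1537 higher DEGs 1369 were apart in this way, and of the 1171 lower DEGs 1069. Where a called gene is said below to have groups that do not overlap, this mostly restates its call.

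Most of these DEGs had also moved at 6 hr. The 6 hr comparison called 5390 genes (42.5%), 2714 higher and 2676 lower, and the comparison of 24 hr with 6 hr called 3593 (28.3%), 1907 higher and 1686 lower. These comparisons share libraries, so their counts are given side by side and not as independent results. Of the 1537 genes higher at 24 hr, 1048 were also higher at 6 hr, 31 were lower and 458 were not called at 6 hr. Of the 1171 genes lower at 24 hr, 965 were also lower at 6 hr, 5 were higher and 201 were not called. Set against the 6 hr level, 338 of the higher DEGs had come down by 24 hr, 367 stood higher still and 832 were not called. Of the lower DEGs, 294 had come back up, 102 stood lower still and 775 were not called.

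**Figure D2:**
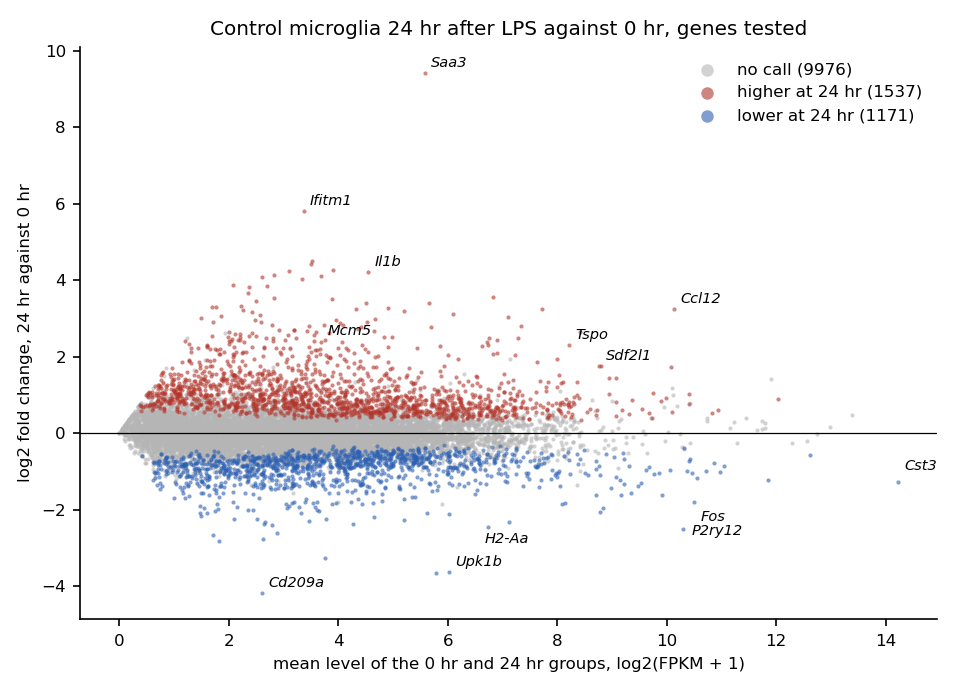
Log2 fold change of control microglia at 24 hr against 0 hr (y axis) by the mean level of both groups in log2(FPKM + 1) (x axis), 1 point per gene tested. The 1537 higher DEGs are red and the 1171 lower DEGs blue, and Saa3 (9.42) and Cd209a (-4.19) lie at the extremes.

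The genes with the largest changes were picked among calls whose 24 hr and 0 hr libraries do not overlap, so the separation of their groups was fixed by that choice and is not a result. The largest increase was that of Saa3, which encodes serum amyloid A3, an acute phase protein. Saa3 was at 0.280, 0 and 3.81 FPKM at 0 hr and at 1663, 1342, 766 and 1450 at 24 hr (log2 fold change 9.42 ± 0.49 SE, adjusted p = 3.4e-12). All 4 libraries were far above baseline, yet below the 5923 to 11196 FPKM of the 6 hr libraries (24 hr minus 6 hr -2.70, adjusted p = 6.0e-05). Ifitm1, an interferon-induced membrane protein, went from 0.709, 0.519 and 0 FPKM to 59.8, 217, 30.4 and 85.2 (5.82 ± 0.49). Its highest value was in replicate 2, which had the highest summed neutrophil markers, and its lowest was in replicate 3, which had the highest mean log2 level of those markers. Msr1, a scavenger receptor for modified lipoproteins, went from 3.20, 2.11 and 1.21 FPKM to 60.3, 64.9, 30.7 and 62.6 (4.12 ± 0.34). Cd244, a receptor of the SLAM family, was one of the most even changes, from 1.11, 2.24 and 1.33 FPKM to 35.6, 35.8, 41.8 and 48.6 (4.03 ± 0.16, adjusted p = 1.8e-14). Igfbp6, which binds insulin-like growth factors, went from at most 1.09 FPKM to 16.8 to 31.3 (4.08), Acp5, a lysosomal acid phosphatase, from at most 2.58 to 22.1 to 39.5 (4.13), and Ecm1, a secreted matrix protein, from at most 4.23 to 25.8 to 99.6 (4.42).

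The deepest decreases included genes with 0 hr values from 10.9 to 290 FPKM. Cd209a, a lectin receptor typical of dendritic cells and some macrophages, was at 39.4, 25.8 and 15 FPKM at 0 hr and at 0.241, 0, 2.30 and 0 at 24 hr (log2 fold change -4.19 ± 0.51, adjusted p = 3.5e-06). Mgl2, another lectin of such cells, was at 21.7, 10.9 and 14.6 FPKM and then at 0.231, 0.334, 4.17 and 2.64 (-2.77 ± 0.47). The dendritic cell markers summed to 708.8 to 896.5 FPKM at 0 hr and 248 to 397.8 at 24 hr, which do not overlap, and most of that sum is Siglech, which is also a microglial gene. Without Siglech and Cd209a, which were left out after their values were seen, the sums were 51.78 to 58.66 and 54.61 to 61.8 and overlapped. Ighj1, a joining segment of the immunoglobulin heavy chain, was at 171, 263 and 165 FPKM and then at 22.5, 19.5, 28.9 and 3.09 (-3.65 ± 0.65, adjusted p = 0.00029). Upk1b, a membrane protein named for the bladder lining, had a high baseline of 223, 290 and 185 FPKM and was at 13.8, 11.9, 26.1 and 21.3 at 24 hr (-3.64 ± 0.27, adjusted p = 3.9e-09). Tnfrsf17, a receptor for the B cell survival factors BAFF and APRIL, fell from 39.8, 39.7 and 43.5 FPKM to 3.38, 2.87, 2.75 and 4.84 (-3.26 ± 0.32). Ramp1, which forms the receptor for the neuropeptide CGRP, fell from 18.7, 17 and 16.4 FPKM to 2.09, 2.19, 1.67 and 1.95 (-2.63 ± 0.27), with little spread within either group.

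Most genes of the homeostatic microglial signature were lower. Of 35 tested, 26 (74.3%) were lower at 24 hr and none was higher, against 9.23% of all genes lower, and the list median was -0.88 against 0.01. Without 24 hr replicate 4 the count was 22 and the median -0.72. At 6 hr 31 were lower (median -1.46), and 18 stood higher at 24 hr than at 6 hr while 1 stood lower. P2ry12 was at 3131, 3242 and 2650 FPKM at 0 hr and at 511, 379, 782 and 506 at 24 hr, or 18.1% of the 0 hr mean (log2 fold change -2.51 ± 0.24, adjusted p = 2.1e-07). It had been at 175 to 397 FPKM at 6 hr, so the 24 hr libraries nearly all lay above the 6 hr libraries but well short of baseline (24 hr minus 6 hr 0.95, adjusted p = 0.0018). Gpr34, a lysophosphatidylserine receptor, came back further, from 859, 1110 and 774 FPKM at 0 hr to 24.5 to 79.4 at 6 hr and 200, 148, 262 and 274 at 24 hr (24 hr against 0 hr -2.07 ± 0.30, against 6 hr 2.38).

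Other members sat at different depths. Slc2a5, the fructose transporter, was at 500, 584 and 512 FPKM and then at 169, 141, 230 and 87.4 (-1.83 ± 0.31). Siglech, a sialic acid-binding lectin, was at 618, 813 and 787 FPKM and then at 229, 188, 334 and 217 (-1.63 ± 0.19), and it did not differ from its 6 hr level by the test (-0.16, adjusted p = 0.51). Sall1 was at 86.2, 85.8 and 92.7 FPKM and then at 47.8, 49.1, 45.4 and 36.8, or 50.7% of baseline (-0.97 ± 0.18, adjusted p = 0.00031). For these genes all 24 hr libraries lay below all 0 hr libraries. Trem2, a lipid-sensing receptor, was at 2090, 2361 and 2301 FPKM and then at 1036, 1009, 1092 and 884 (-1.16 ± 0.14). Cst3, cystatin C and the most abundant transcript of the list, was at 29613, 31649 and 28556 FPKM and then at 11528, 12292, 12688 and 12555 (-1.29 ± 0.17, adjusted p = 1.2e-05), although quantile normalization, which gives every library the same top values, ended that call (adjusted p = 0.66).

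For some canonical markers the call was lost in at least 1 alternative fit. Tmem119 was at 2375, 3042 and 3259 FPKM at 0 hr and at 1979, 1790, 1986 and 556 at 24 hr (-1.03 ± 0.30, adjusted p = 0.016). Replicate 4 was far below the other 24 hr libraries, without it the difference was -0.58 (adjusted p = 0.028), and the call was lost without 0 hr replicate 2 (-0.98, adjusted p = 0.055) or replicate 3 (-0.93, 0.069), at nearly the same fold. Cx3cr1, at 1982, 2616 and 2596 FPKM and then 1477, 1258, 1660 and 684, was called whichever library was left out (-0.98 ± 0.25, -0.71 without 24 hr replicate 4). Csf1r, the receptor that microglia need for survival, was at 1451, 1852 and 2017 FPKM and then at 1340, 1198, 1313 and 595 (-0.73 ± 0.20, adjusted p = 0.011, -0.63 with 0.066 without 0 hr replicate 3, and -0.45 with 0.022 without 24 hr replicate 4). In Csf1r the highest 24 hr library lay just under the lowest 0 hr library. With only the 2 groups in the fit, the calls of Tmem119 and Csf1r were lost (adjusted p = 0.13 and 0.12), and quantile normalization ended that of Cx3cr1 (0.067). Aif1, which encodes IBA1, was not called, at 1140, 1133 and 971 FPKM and then 931, 832, 861 and 1172 (-0.20, adjusted p = 0.38), after 316 to 483 FPKM at 6 hr.

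Lineage transcription factors and immediate early genes had calls in both directions. Among 25 lineage transcription factors 2 were higher (8%, under the 12.1% of all genes) and 8 lower (32%, against 9.23%), with a median of -0.41, and without 24 hr replicate 4 the counts were 3 and 7. Cebpb, a factor of inflammatory myeloid genes, was higher at 164, 331, 330 and 84.8 FPKM against 65.9, 67.3 and 110 (1.31 ± 0.32, adjusted p = 0.0049), with replicate 4 inside the 0 hr range and 579 to 837 FPKM at 6 hr, and this call was lost with only the 2 groups in the fit (0.074). Among 21 immediate early genes 4 were higher (19%) and 8 lower (38.1%), with a median of -0.42, and 3 were lower without 24 hr replicate 4. Fos, a subunit of AP-1, was at 2643, 2824 and 2654 FPKM and then at 1067, 686, 969 and 500 (-1.81 ± 0.41, adjusted p = 0.0024). Egr1, a zinc finger factor induced within minutes of stimulation, was at 1085, 947 and 1382 FPKM and then at 464, 426, 601 and 175 (-1.56 ± 0.37). Jun was at 1689, 1470 and 1900 FPKM and then at 750, 662, 710 and 257 (-1.61 ± 0.47, adjusted p = 0.016), a call lost without 24 hr replicate 4 (0.065) or 0 hr replicate 3 (0.062). In each of the 3 factors all 24 hr libraries lay below baseline and replicate 4 was the lowest.

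Genes of MHC class II, which presents antigen to CD4 T cells, were lower in part. Of 15 genes of class II and costimulation 7 were lower (46.7%, against 9.23% of all genes) and none was higher, with a median of -0.44, and 6 were lower without 24 hr replicate 4. All 7 belong to the class II presentation machinery (H2-Aa, H2-Ab1, H2-Eb1, Cd74, H2-DMa, H2-Oa and H2-Ob). H2-Eb1 was at 337, 237 and 192 FPKM at 0 hr and at 46.6, 38.4, 66.6 and 32.3 at 24 hr (-2.46 ± 0.30, adjusted p = 3.2e-06). H2-Aa was at 418, 293 and 248 FPKM and then at 78.1, 49.8, 91.8 and 40.1 (-2.32 ± 0.28). H2-Ab1 was at 1494, 873 and 561 FPKM and then at 192, 202, 268 and 278 (-1.96 ± 0.27). The groups did not overlap for H2-Aa and H2-Ab1 either, and none of the 3 differed from its 6 hr level by the test (adjusted p = 0.93, 0.49 and 0.88). H2-Ob, which restrains peptide loading, was at 25.7, 32.7 and 27.3 FPKM and then at 5.94, 8.97, 7.89 and 6.63 (-1.83 ± 0.18). Class II genes are also high in dendritic cells and B cells. Of 9 dendritic cell markers 3 were lower at 24 hr as well (Cd209a, Klrd1 and Siglech), 1 was higher and 5 were not called. Without Siglech and Cd209a their sums overlapped between 0 and 24 hr. The immunoglobulin genes Ighm and Ighj1 were lower, and the sums of T, NK and B cell markers overlapped without Ighm. The part of these cells in the class II decrease was not tested. Among 22 genes of MHC class I and antigen processing 7 were higher (31.8%, against 12.1% of all genes) and none lower (median 0.38).

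Lysosomal genes were lower in part. Of 38 lysosomal genes 13 (34.2%) were lower and 5 (13.2%) higher, against 9.23% and 12.1% of all genes (median -0.31), with 11 lower without 24 hr replicate 4, and 21 stood higher at 24 hr than at 6 hr while none stood lower. Ctsd, cathepsin D, was at 4669, 5876 and 6528 FPKM and then at 3082, 2683, 3194 and 1290 (-1.22 ± 0.22, adjusted p = 0.00027). Ctsc, cathepsin C, went the other way from 327, 352 and 306 FPKM to 913, 879, 850 and 892 (1.43 ± 0.20), with 4 nearly equal libraries at 24 hr. Ctss, cathepsin S, was not called at 7657, 8540 and 6948 FPKM and then 7418, 8392, 9175 and 9172 (0.15, adjusted p = 0.53).

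Genes of the disease-associated microglia (DAM) signature moved in both directions, with 11 of 28 higher (39.3%) and 6 lower (21.4%), against 12.1% and 9.23% of all genes. The list median was 0.47, and 5 were lower without 24 hr replicate 4. Tspo, the mitochondrial protein targeted by PET ligands for neuroinflammation, rose from 160, 138 and 108 FPKM to 651, 839, 580 and 600 (2.30 ± 0.20, adjusted p = 4.3e-08). Its 24 hr level did not differ from its 6 hr level by the test (-0.12, adjusted p = 0.66). Spp1, osteopontin, rose from 7.45, 3.24 and 5.07 FPKM to 43.4, 63.5, 21.2 and 61.4 (2.89 ± 0.45), after 77.8 to 255 at 6 hr. Lilrb4a, an inhibitory receptor, rose from 18.9, 9.61 and 7.13 FPKM to 66.1, 89.5, 51.2 and 66.0 (2.5 ± 0.41). Cst7, cystatin F, rose from 15.7, 15.6 and 9.48 FPKM to 52.1, 45.4, 44.0 and 43.2 (1.72 ± 0.27), and Plin2, a lipid droplet coat protein, from 40.7, 42.2 and 27.8 to 160, 165, 97.0 and 155 (1.93 ± 0.30). In these 5 genes every 24 hr library was above every 0 hr library. Apoe fell from 2538, 1628 and 1604 FPKM to 1216, 1146, 871 and 644 (-1.0 ± 0.26, adjusted p = 0.0082), a call lost without 0 hr replicate 1, its highest library (0.065). The lower DAM genes include Trem2 and Ctsd, given above.

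**Figure D3:**
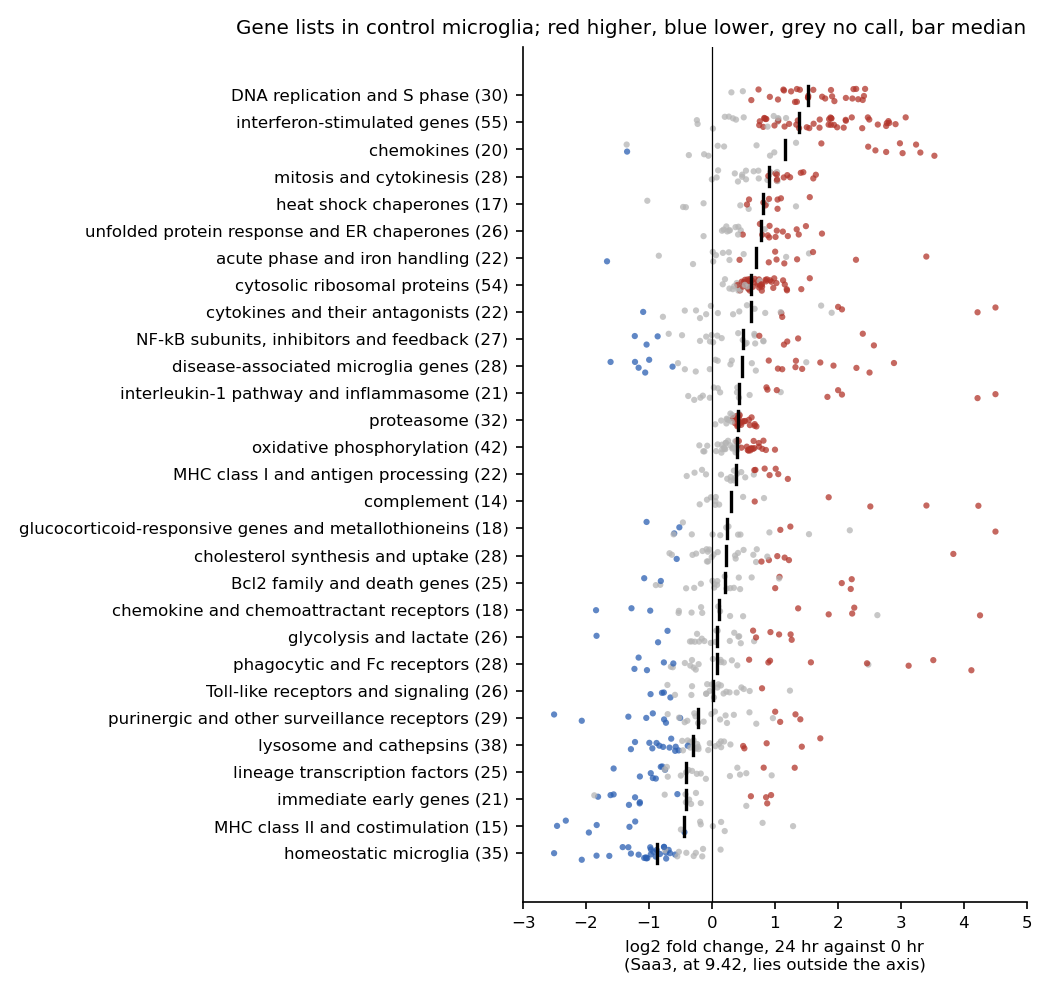
Log2 fold change of every tested member of 29 gene lists at 24 hr against 0 hr, with higher DEGs red, lower DEGs blue, other genes grey, the list median as a bar and the number tested in parentheses. Genes of DNA replication (median 1.53) and interferon-stimulated genes (1.38) lie furthest to the right and homeostatic genes (-0.88) furthest to the left.

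Of the cytokines and their antagonists, 6 of 22 tested were higher (27.3%) and 1 lower (4.5%), against 12.1% and 9.23% of all genes. The median was 0.62, and 7 were higher without 24 hr replicate 4. Il1b, interleukin-1 beta, was at 1.68, 6.01 and 7.39 FPKM at 0 hr and at 117, 115, 78.2 and 93.7 at 24 hr, 20.1 times the baseline mean (log2 fold change 4.22 ± 0.65, adjusted p = 5.2e-05). The 24 hr libraries were close together and within the 87.5 to 1238 FPKM of the 6 hr libraries or just below, and the comparison of 24 with 6 hr was not called (-0.73, adjusted p = 0.36). Il1r2, the decoy receptor that binds interleukin-1 without signaling, rose from 4.43, 0.108 and 1.28 FPKM to 44.4, 165, 20.4 and 52.8 (4.50 ± 0.75), highest in replicate 2 and lowest in replicate 3, the 24 hr libraries with the highest neutrophil markers by the sum and by the mean log2 level. Il18bp, which neutralises interleukin-18, rose from 4.67, 2.07 and 2.11 FPKM to 10.6, 23.1, 10.5 and 18.6 (2.07 ± 0.38). Il1rn, the interleukin-1 receptor antagonist, had come down, from 142 to 1954 FPKM at 6 hr to 11.5, 14.9, 6.6 and 14.5 at 24 hr against 2.27, 0.863 and 3.82 at 0 hr (24 hr against 6 hr -5.44, adjusted p = 5.1e-08). Its remaining difference from baseline was 2.0 ± 0.55 (adjusted p = 0.011, and 0.074 without 0 hr replicate 2). Of 21 genes in the interleukin-1 pathway and inflammasome list 8 were higher (38.1%) and none lower, but without 24 hr replicate 4 there were 7 higher and 1 lower.

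Tnf, tumour necrosis factor, was at 116, 92.5 and 113 FPKM and then at 276, 240, 247 and 170 (1.10 ± 0.33, adjusted p = 0.019), a call lost without 0 hr replicate 2 (0.078) or 24 hr replicate 1 (0.051). Il6 stood at 5.75, 4.14 and 5.88 FPKM at 0 hr and at 1.86, 2.5, 3.25 and 3.01 at 24 hr (-0.78, adjusted p = 0.17). Il12b stood at 0.534, 1.04 and 0.160 FPKM and then at 3.67, 4.25, 3.50 and 8.90 (1.90, adjusted p = 0.20). Il1a stood at 191, 200 and 155 FPKM and then at 404, 305, 418 and 436 (1.09, adjusted p = 0.13). The 24 hr and 0 hr libraries did not overlap for these last 3 cytokines, and with only the 2 groups in the fit, which leaves out the 6 hr library with 1439 FPKM of Il12b and 1784 of Il1a, the adjusted p was 0.042 for Il6, 0.0046 for Il12b and 0.0028 for Il1a.

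Nearly as many chemokines were called higher as not. Of 20 tested 9 (45%) were higher and 1 (Ccl24) lower, against 12.1% and 9.23% of all genes, with a median of 1.16, and the count of 9 held without 24 hr replicate 4. Against 6 hr 2 stood higher and 5 lower. Ccl12, a mouse ligand of CCR2 that recruits monocytes, was at 429, 412 and 277 FPKM and then at 2624, 3128, 3446 and 5143 (3.24 ± 0.31, adjusted p = 1.7e-07), a level not different by the test from that at 6 hr (-0.12, adjusted p = 0.78). Ccl2, another CCR2 ligand, was at 624, 599 and 561 FPKM, then 585 to 1439 at 6 hr, and 1640, 1992, 1819 and 2615 at 24 hr (24 hr against 0 hr 1.74 ± 0.24, against 6 hr 1.06, adjusted p = 0.00065). Both CCR2 ligands had their highest 24 hr value in replicate 4. Cxcl2, a neutrophil chemoattractant, rose from 9.34, 10.2 and 5.47 FPKM to 89.8, 105, 40.6 and 65.8 (2.99 ± 0.40). Cxcl13, a B cell chemoattractant, rose from 6.91, 0.125 and 0 FPKM to 20.3, 24.9, 29.4 and 18.9 (3.53 ± 0.66). Ccl22, a ligand of CCR4, went from 0.0822, 0.0802 and 0.0860 FPKM to 43.1, 7.79, 4.94 and 4.79 (3.31 ± 0.73, adjusted p = 0.0021), with a single high library at 24 hr.

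A second set of chemokines had come down from 6 hr. Ccl5, a T cell and monocyte chemoattractant, was at 65.7, 34.9 and 45.4 FPKM at 0 hr, 938 to 7169 at 6 hr and 513, 678, 171 and 394 at 24 hr (24 hr against 0 hr 3.03 ± 0.48, against 6 hr -2.49). Cxcl10, an interferon-induced ligand of CXCR3, was at 11.6, 4.75 and 6.65 FPKM, then 69.7 to 2412, then 60.2, 60.1, 42.2 and 59.8 (2.77 ± 0.66 and -2.47). Both remained above every 0 hr library. Ccl3 and Ccl4, macrophage inflammatory chemokines already abundant in these cells at 0 hr, were not called. Ccl3 stood at 1081, 850 and 836 FPKM and then at 1522, 1338, 1381 and 1789 (0.71, adjusted p = 0.34), and Ccl4 at 895, 841 and 656 and then at 1574, 1594, 1498 and 1622 (0.99, adjusted p = 0.30). Their groups did not overlap, and with only the 2 groups in the fit the adjusted p was 0.020 for Ccl3 and 0.0031 for Ccl4.

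Among 18 chemokine and chemoattractant receptors 5 were higher (27.8%) and 3 lower (16.7%), against 12.1% and 9.23% of all genes. The median was 0.12, and 4 were lower without 24 hr replicate 4. Fpr1, a receptor for bacterial formyl peptides, rose from 3.94, 0.878 and 3.30 FPKM to 61.5, 94.7, 37.8 and 77.9 (4.26 ± 0.47, adjusted p = 9.1e-07). C5ar1, the receptor for complement C5a, rose from 100, 103 and 109 FPKM to 414, 445, 421 and 264 (1.85 ± 0.19), after 846 to 1092 at 6 hr. Cxcr2, a receptor for neutrophil chemokines, was at 1.56, 1.43 and 1.33 FPKM and then at 6.5, 30.9, 5.45 and 11.1 (2.26 ± 0.44). Prok2, a secreted peptide abundant in neutrophils, went from at most 0.197 FPKM at 0 hr and 1.24 at 6 hr to 11.3, 33.7, 8.40 and 15.9 at 24 hr (24 hr against 6 hr 3.16, adjusted p = 2.4e-07). Cxcr2 and Prok2 were both highest in 24 hr replicate 2, and Cxcr2 is the neutrophil marker that was called with all libraries.

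Genes of Toll-like receptors and their signaling were together called at 24 hr at a share close to that of all genes. Of 26 genes of Toll-like receptors and signaling 1 (3.85%) was higher and 4 (15.4%) lower, against 12.1% and 9.23% of all genes (median 0.01), and without 24 hr replicate 4 there were 2 higher and 5 lower. At 6 hr 9 had been higher and 7 lower, when 42.5% of all genes were called in either direction. Tlr1 was the higher one with all libraries, at 15.6, 15.2 and 12.7 FPKM and then 22.9, 27.3, 25.9 and 27.5 (0.80 ± 0.18). Tlr9, a receptor for DNA in endosomes, fell from 4.07, 3.43 and 4.17 FPKM to 1.41, 2.05, 2.54 and 1.42 (-0.79 ± 0.18). Cd14, the LPS co-receptor, stood at 771, 775 and 650 FPKM and then at 914, 985, 856 and 1095 (0.39, adjusted p = 0.53), with every 24 hr library above every 0 hr library, after 1457 to 12770 at 6 hr (24 hr against 6 hr -1.79, adjusted p = 0.00056). Tlr2 stood at 80.8, 73.1 and 81.4 FPKM and then at 226, 213, 177 and 141 (1.24, adjusted p = 0.087, and 0.0020 with only the 2 groups in the fit).

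Of 27 NF-kB subunits, inhibitors and feedback genes 6 (22.2%) were higher and 3 (11.1%) lower, against 12.1% and 9.23% of all genes. The median was 0.49, 2 were lower without 24 hr replicate 4, and 15 had been higher at 6 hr. Ikbke, a kinase of the interferon and NF-kB pathways, rose from 1.39, 0.408 and 0.584 FPKM to 9.53, 11.9, 6.68 and 5.88 (2.4 ± 0.39). Bcl3, an atypical I-kappa-B protein, rose from 8.19, 1.66 and 0.679 FPKM to 24.8, 26.2, 28.3 and 7.68 (2.57 ± 0.51), with replicate 4 inside the 0 hr range. Dusp1, a phosphatase of MAP kinases, fell from 2428, 2163 and 1555 FPKM to 1054, 847, 1190 and 869 (-1.04 ± 0.23). Nfkbia, which encodes I-kappa-B alpha, stood at 770, 766 and 802 FPKM and then at 1313, 1237, 1257 and 1169 (0.67, adjusted p = 0.075). Tnfaip3, which encodes A20, stood at 22.7, 27.0 and 24.5 FPKM and then at 42.1, 40.3, 36.4 and 43.0 (0.69, adjusted p = 0.46). For both inhibitors all 24 hr libraries were above all 0 hr libraries, and the adjusted p with only the 2 groups in the fit was 0.0081 for Nfkbia and 0.010 for Tnfaip3.

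Interferon-stimulated genes were the broadest elevated immune group. Of 55 tested 41 (74.5%) were higher and none was lower, against 12.1% of all genes higher, with a median of 1.38, and 41 were called without 24 hr replicate 4 as well. At 6 hr 52 had been higher (median 2.10), and by 24 hr 35 stood below and 1 above the 6 hr level. Oasl1, an antiviral protein of the 2-5A synthetase family, was at 1.33, 0.684 and 1.17 FPKM at 0 hr, 21.1 to 207 at 6 hr and 14.1, 28.5, 11.5 and 15 at 24 hr (24 hr against 0 hr 3.08 ± 0.44, adjusted p = 2.5e-05). Irf7, the factor that amplifies type I interferon, was at 13.7, 3.75 and 7.29 FPKM and then at 90.9, 99.5, 64.7 and 24.8 (2.92 ± 0.40). Oas1a, a 2-5A synthetase, was at 5.12, 5.0 and 2.47 FPKM and then at 31.1, 50.9, 29.3 and 30.3 (2.82 ± 0.27, adjusted p = 1.5e-07). Zbp1, a sensor of Z-form nucleic acids, was at 6.06, 2.08 and 2.38 FPKM and then at 28.8, 40.4, 21.1 and 25.8 (2.80 ± 0.38). Every 24 hr library was above every 0 hr library for these 4 genes, and every one was lower at 24 hr than at 6 hr by the test. Ly6e, a membrane protein that restricts coronaviruses, was the member that stood above its 6 hr level, at 684, 729 and 719 FPKM at 0 hr, 619 to 1027 at 6 hr and 1296, 1452, 1386 and 990 at 24 hr (24 hr against 6 hr 0.52, adjusted p = 0.017).

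Promoter sequence was read for the genes of these groups. The 250 bases before the start of transcription are shown for Oas1a and Cxcl10, members of the interferon list, 5′ to 3′ along the gene, with matches to GAAANNGAA, the core of the interferon-stimulated response element, in capitals. Windows to show were picked among higher DEGs named here whose only window holds a match, so a match in each was fixed by that choice. The Oas1a window (chr5:120907526-120907775, minus strand, GRCm38.p6) holds 2 overlapping matches that begin 20 and 14 bases before the start.
Oas1a: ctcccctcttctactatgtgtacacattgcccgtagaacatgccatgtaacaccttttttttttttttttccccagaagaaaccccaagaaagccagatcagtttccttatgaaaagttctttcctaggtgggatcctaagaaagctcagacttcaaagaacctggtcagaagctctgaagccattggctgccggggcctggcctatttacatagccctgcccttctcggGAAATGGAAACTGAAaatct
The Cxcl10 window (chr5:92348890-92349139, minus strand) holds 1 match, at position -213 from the start.
Cxcl10: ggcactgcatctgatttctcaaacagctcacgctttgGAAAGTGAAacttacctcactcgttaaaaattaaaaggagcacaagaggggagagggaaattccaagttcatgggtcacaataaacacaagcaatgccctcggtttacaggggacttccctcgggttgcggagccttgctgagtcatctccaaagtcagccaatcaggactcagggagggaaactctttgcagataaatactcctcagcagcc
On either strand, 300-base RefSeq windows (250 bases before to 50 after the start) held GAAANNGAA for 25 of 35 interferon-stimulated genes (71.4%), 12.8% of the genes higher at 24 hr, 6.47% of those lower and 7.53% of all genes tested, counting the 7845 genes with exactly 1 window. These shares describe the letters in the windows and were not tested.

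The kappa B core GGNNTTTCC was held by 8 of 19 windows of NF-kB genes (42.1%) and 5 of 13 of chemokines (38.5%). It was held by 6.54% of the genes higher at 24 hr, 6.62% of those lower and 6.34% of all. The window of Cxcl10, shown above, holds a match to this core at position -158, which is not in capitals there. The window of Cxcl2 (chr5:90903649-90903898, plus strand) was picked by the same rule and holds 2 matches, at positions -96 and -77, in capitals.
Cxcl2: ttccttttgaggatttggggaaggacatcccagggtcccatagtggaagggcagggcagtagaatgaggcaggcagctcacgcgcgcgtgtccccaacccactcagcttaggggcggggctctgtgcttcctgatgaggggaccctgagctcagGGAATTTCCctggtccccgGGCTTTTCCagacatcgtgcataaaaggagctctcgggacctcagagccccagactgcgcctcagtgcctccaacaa
The PU.1 sequence GAGGAAGT was held by 4.6% of the genes higher, 4.85% of those lower and 3.52% of all.

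Acute phase, complement and phagocytic genes were mostly raised where called. Of 22 acute phase and iron genes 10 were higher (45.5%) and 1 lower (4.5%), against 12.1% and 9.23% of all genes (median 0.70). Lrg1, a leucine-rich acute phase protein that neutrophils also carry, rose from 35.2, 4.08 and 19 FPKM to 120, 378, 132 and 117 (3.41 ± 0.57), again highest in replicate 2. Hp, haptoglobin, was at 69.1, 6.15 and 34.6 FPKM, then 817 to 1531 at 6 hr, then 121, 225, 119 and 79.5 (24 hr against 0 hr 2.29 ± 0.55, adjusted p = 0.0043, and 1.35 with adjusted p = 0.062 without 0 hr replicate 2). Fth1, the heavy chain of ferritin, rose from 3360, 3015 and 2819 FPKM to 5924, 6778, 4524 and 5881 (0.90 ± 0.25). Slc40a1, ferroportin, the iron exporter, was the lower one, from 67.3, 84.7 and 73.1 FPKM to 21.5, 19.8, 26.4 and 24.2 (-1.67 ± 0.28), after 2.73 to 11 at 6 hr. Lcn2, lipocalin 2, which binds bacterial siderophores, stood at 78.3, 10.2 and 108 FPKM and then at 133, 202, 162 and 71.0 (1.54, adjusted p = 0.052), and with 1 library left out its value ranged from 0.52 (adjusted p = 0.49, without 0 hr replicate 2) to 2.17 (0.015).

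Of 14 complement genes 5 were higher (35.7%, against 12.1% of all genes) and none lower (median 0.30). Cfb, complement factor B, rose from 0.704, 1.37 and 0.907 FPKM to 56.8, 35.9, 30.6 and 27.3 (4.23 ± 0.46, adjusted p = 7.9e-07), after 103 to 284 at 6 hr. Cfp, properdin, rose from 6.64, 2.48 and 11.7 FPKM to 113, 96.5, 68.9 and 37.2 (3.41 ± 0.39). C4b, of the classical pathway, rose from 1.77, 0.135 and 0.462 FPKM to 9.02, 11.6, 7.85 and 6.32 and stood above its 6 hr level of 1.63 to 4.11 (1.28, adjusted p = 0.0016). C1qa, the most abundant complement transcript here, was not called at 5958, 7307 and 7670 FPKM and then 9339, 9016, 8575 and 3069 (-0.02, adjusted p = 0.98). Its sign depended on replicate 4, with 0.37 (adjusted p = 0.069) when that library was left out.

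Of 28 phagocytic and Fc receptors 8 were higher and 5 lower (28.6% and 17.9%, against 12.1% and 9.23% of all genes), with a median of 0.08 close to the 0.01 of all genes, and 7 were higher without 24 hr replicate 4. Fcgr4, an activating receptor for IgG, was at 21.1, 22.9 and 22.4 FPKM and then at 202, 231, 190 and 183 (3.12 ± 0.16, adjusted p = 3.4e-12), a level that did not differ from 6 hr by the test (0.04, adjusted p = 0.87). Cd300lf, an inhibitory lipid receptor, was at 5.60, 0.770 and 6.20 FPKM and then at 43.9, 82.5, 37.4 and 43.0 (3.52 ± 0.50). The groups were far apart for both receptors.

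**Figure D4:**
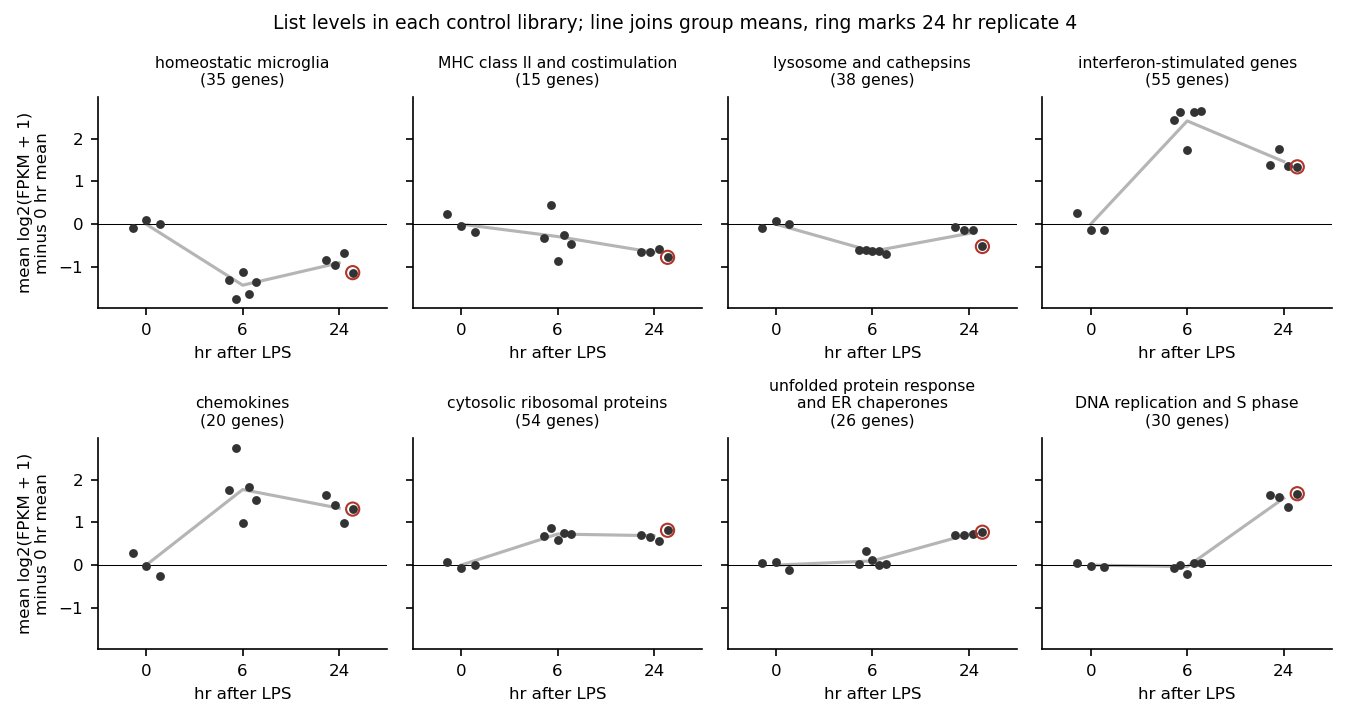
Mean log2(FPKM + 1) of the tested members of 8 gene lists in each control library at 0, 6 and 24 hr after LPS, minus the mean of the 0 hr libraries, with lines joining group means and a ring on 24 hr replicate 4. Interferon-stimulated genes peaked at 6 hr and remained above 0 hr at 24 hr (1.34 to 1.77), homeostatic genes remained below (-1.14 to -0.68), and genes of DNA replication were flat at 6 hr (-0.22 to 0.05) and high at 24 hr (1.36 to 1.67).

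Many genes for making and degrading proteins and for respiration were called higher. Of 54 cytosolic ribosomal protein genes 39 (72.2%, against 12.1% of all genes) were higher and none lower (median 0.62), and 38 without 24 hr replicate 4. At 6 hr 47 had been higher, and 2 were above and 2 below the 6 hr level at 24 hr. Rps14 was at 289, 248 and 245 FPKM and then at 350, 363, 332 and 424 (0.49 ± 0.11, adjusted p = 0.0023), and Rps27a, a ubiquitin fusion, at 4.71, 4.07 and 5.88 and then at 15.8, 12.3, 16.5 and 21.1 (1.55 ± 0.18). Ribosomal protein genes have many processed pseudogenes, and how reads were split between copies is not given in the sources used here. Of 32 proteasome genes 21 (65.6%) were higher and none lower (median 0.42), but 13 without 24 hr replicate 4. In that replicate Psma4 was at 94.0 FPKM against 54.5 to 61.6 in the other 24 hr libraries and 34.0 to 43.2 at 0 hr (0.71 ± 0.15). Of 42 genes of oxidative phosphorylation 19 (45.2%) were higher and none lower (median 0.39), 16 without that replicate. Cox5a, of cytochrome c oxidase, was at 120, 114 and 93.7 FPKM and then at 185, 193, 173 and 247 (0.86 ± 0.15).

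Endoplasmic reticulum (ER) chaperones were also among the genes called higher. Of 26 genes of the unfolded protein response and ER chaperones 14 (53.8%, against 12.1% of all genes) were higher and none lower (median 0.78). Without 24 hr replicate 4 there were also 14. At 6 hr 5 had been higher and 4 lower (median 0.05), and 17 stood higher at 24 hr than at 6 hr. Sdf2l1, an ER protein that supports the chaperone BiP, was at 254, 263 and 200 FPKM at 0 hr, 90.9 to 158 at 6 hr and 728, 812, 726 and 950 at 24 hr (24 hr against 0 hr 1.75 ± 0.25, 6 hr against 0 hr -1.17, 24 hr against 6 hr 2.91). The 3 time points did not overlap, and the gene was called lower at 6 hr and higher at 24 hr. Hspa5, which encodes BiP, was at 1012, 1034 and 826 FPKM and then at 1917, 1879, 1941 and 2058 (1.03 ± 0.24, adjusted p = 0.0031). Manf, a secreted ER stress protein, was at 86.0, 99.7 and 84.9 FPKM and then at 214, 232, 217 and 286 (1.38 ± 0.18). Creld2, another, was at 88.5, 105 and 67.3 FPKM and then at 194, 224, 212 and 251 (1.35 ± 0.28), and Hyou1 at 9.37, 9.86 and 5.06 and then at 18.9, 17.9, 19.7 and 47.3 (1.49 ± 0.35). All 24 hr libraries were above all 0 hr libraries for these 5 genes.

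Of 17 heat shock chaperones 9 (52.9%, against 12.1% of all genes) were higher and none lower (median 0.82). Without 24 hr replicate 4 there were 7, and 11 stood higher than at 6 hr with all libraries. Hsp90ab1 was at 564, 638 and 589 FPKM and then at 1137, 1121, 1131 and 1584 (1.04 ± 0.28, adjusted p = 0.0084). Hsph1, of the HSP110 family, was at 9.07, 11.9 and 10.5 FPKM and then at 26.6, 29.6, 26.6 and 53.8 (1.55 ± 0.34). The mitochondrial chaperonins Hspd1 and Hspe1 were also higher, Hspd1 at 17.7, 16.6 and 17.8 FPKM and then at 37.0, 34.3, 39.5 and 36.5 (1.04 ± 0.13), and Hspe1 at 49.6, 67.9 and 45.8 and then at 103, 124, 92.0 and 152 (1.10 ± 0.26). In Hsp90ab1, Hsph1 and Hspe1 the highest value was in replicate 4.

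Genes of DNA replication formed the most uniform late group. Of 30 tested 28 (93.3%) were higher and none lower, against 12.1% of all genes higher, with a median of 1.53, and 27 were called without 24 hr replicate 4 (median 1.53). At 6 hr 2 were higher and 5 lower (median 0.00), and the same number of 28 stood higher at 24 hr than at 6 hr. The summed FPKM of the list was 278.9, 260.1 and 230.1 at 0 hr, 190.5 to 268.8 at 6 hr, and 663.5, 638.0, 562.3 and 687.2 at 24 hr. Mcm5, a subunit of the replicative helicase, was at 5.09, 3.23 and 5.83 FPKM at 0 hr, 1.42 to 5.90 at 6 hr and 34.1, 30.5, 24.8 and 25.4 at 24 hr (24 hr against 0 hr 2.4 ± 0.33, adjusted p = 1.6e-05). Mcm2, of the same helicase, was at 0.397, 2.63 and 4.44 FPKM and then at 24.2, 19.4, 18.2 and 5.83 (2.42 ± 0.44). Mcm7 was at 9.19, 8.24 and 5.72 FPKM and then at 24.5, 26.3, 19.7 and 17.2 (1.40 ± 0.19), after 3.27 to 4.52 at 6 hr. Gins1, of the GINS complex that activates the helicase, was at 3.72, 8.88 and 3.22 FPKM and then at 25.2, 27.4, 25.1 and 49.1 (2.43 ± 0.33). Lig1, the ligase that joins Okazaki fragments, was at 4.44, 5.16 and 3.81 FPKM, then 1.18 to 4.27, then 20.02, 23.1, 18.3 and 31.7 (2.13 ± 0.24). Uhrf1, which copies DNA methylation at the fork, was at 2.04, 0.438 and 0.299 FPKM and then at 11, 8.16, 6.38 and 6.82 (2.32 ± 0.27). Every 24 hr library was above every 0 hr library for these 6 genes, with Mcm2 in replicate 4 the closest to baseline. Slbp, the histone mRNA binding protein, was not called (0.31, adjusted p = 0.13).

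Outside the list, Hells, a chromatin remodeler, was at 2.22, 1.54 and 0.258 FPKM and then at 10.9, 11.7, 8.30 and 21.6 (2.62 ± 0.29), and Atad2, an S phase chromatin factor, at 2.70, 3.42 and 3.32 and then at 11.6, 9.57, 8.44 and 16.8 (1.57 ± 0.23). Atad2, Lig1, Mcm7 and Sdf2l1 are among the 31 genes that were lower at 6 hr and higher at 24 hr. The window of Mcm5 (chr8:75109259-75109508, plus strand) is shown because it holds GCGCCAAA, the complement of the E2F sequence TTTGGCGC, at position -149 in capitals.
Mcm5: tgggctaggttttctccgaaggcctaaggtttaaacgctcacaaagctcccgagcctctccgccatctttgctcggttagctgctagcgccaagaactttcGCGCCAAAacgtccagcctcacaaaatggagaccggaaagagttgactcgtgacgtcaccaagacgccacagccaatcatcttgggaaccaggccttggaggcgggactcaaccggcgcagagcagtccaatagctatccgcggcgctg
TTTGGCGC or TTTCCCGC, on either strand, was held by 7 of 20 windows of replication genes (35%), 5.62% of the genes higher at 24 hr, 1.91% of those lower and 3.29% of all, and these 2 sequences were added after the list had been seen to rise.

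Mitotic genes had calls at both 6 and 24 hr. Of 28 tested 12 (42.9%, against 12.1% of all genes) were higher at 24 hr and none lower (median 0.91). At 6 hr 17 had been higher (median 0.89), and 1 stood above the 6 hr level at 24 hr. Top2a, which untangles DNA at mitosis, was at 2.77, 0.891 and 1.43 FPKM at 0 hr, 4.24 to 7.72 at 6 hr and 6.95, 6.58, 4.51 and 12.2 at 24 hr (1.65 ± 0.35, adjusted p = 0.0015). Cdk1, the mitotic kinase, was at 2.24, 1.02 and 0.763 FPKM and then at 5.50, 5.07, 3.74 and 6.76 (1.45 ± 0.25). Birc5, survivin, was at 0.915, 0.255 and 1.37 FPKM and then at 4.29, 5.12, 2.58 and 6.62 (1.61 ± 0.31). Mki67, the proliferation antigen Ki-67, was at 1.67, 0.980 and 0.758 FPKM and then at 2.35, 3.42, 1.82 and 7.15 (1.03 ± 0.28, adjusted p = 0.0098, 0.057 without 0 hr replicate 3 and 0.080 with only the 2 groups in the fit). The levels of all 4 stayed low, and the highest 24 hr value was in replicate 4 each time.

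The remaining lists had calls in both directions, against 12.1% higher and 9.23% lower of all genes. Of 18 glucocorticoid-responsive genes and metallothioneins 3 were higher and 3 lower (16.7% each), and 14 stood below their 6 hr level. Of 25 genes of the Bcl2 family and cell death 5 were higher and 2 lower (20% and 8%), among them Ripk3, a kinase of necroptosis, from 4.69, 5.39 and 4.68 FPKM to 30.6, 21.5, 24.2 and 29.9 (2.21 ± 0.26, adjusted p = 2.3e-06). Of 28 genes of cholesterol synthesis and uptake 6 were higher and 1 lower (21.4% and 3.57%), or 7 and 2 without 24 hr replicate 4, of which Nr1h3, the sterol-sensing receptor LXR alpha, went from 1.61, 0 and 0.918 FPKM to 36.8, 19.5, 21.9 and 19.1 (3.84 ± 0.63). Of 26 genes of glycolysis and lactate 6 were higher and 3 lower (23.1% and 11.5%), with 8 higher without that replicate, and of 29 purinergic and other surveillance receptors 4 were higher and 8 lower (13.8% and 27.6%), with 6 lower without it. Over the 48 key genes listed for LPS and microglia whatever their values, 17 were higher, 9 lower and 22 not called, and 18 were higher without it.

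Some genes were called in opposite directions at 6 and 24 hr. Besides the 31 genes above, 5 were higher at 6 hr and lower at 24 hr, and since both comparisons use the same 0 hr libraries nothing is read from these counts. Ninj1, which ruptures the membrane of dying cells, was at 159, 130 and 137 FPKM at 0 hr, 235 to 426 at 6 hr and 97.4, 72.5, 82.2 and 46.6 at 24 hr (24 hr against 0 hr -0.96 ± 0.23, 6 hr against 0 hr 1.19). Cry1, a repressor of the circadian clock, was at 4.74, 5.83 and 5.58 FPKM, then 9.31 to 13.7, then 2.96, 3.09, 2.65 and 0.380 (-1.08 ± 0.27 and 0.88), with -0.71 without 24 hr replicate 4, and its 24 hr call was lost with only the 2 groups in the fit (adjusted p = 0.079). Both were below every 0 hr library at 24 hr and above every 0 hr library at 6 hr. Of genes lower at both times, Slc46a3, a lysosomal transporter, had come part of the way back, from 99.3, 92.0 and 88.0 FPKM to 1.36 to 15.1 at 6 hr and 31.4, 32.3, 38.2 and 28.3 at 24 hr (24 hr against 6 hr 2.61). Of genes not called at 6 hr, Cd300e, an activating receptor of monocytes, went from 4.50, 2.76 and 1.20 FPKM and 1.25 to 3.15 at 6 hr to 23.2, 14.9, 24.4 and 28.4 at 24 hr (2.70 ± 0.42).

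To ask whether the late change is particular to resident microglia, the change from 0 to 24 hr was compared with that of WM repopulating cells. The difference passed the test at 11 genes (0.0867%), 9 with a lower and 2 with a higher change in WM repopulating cells, and 1105 genes had an unadjusted p under 0.05. All 11 were DEGs of the control comparison, and they are named here after their values were seen. Pole2, a subunit of DNA polymerase epsilon, was at 0.351, 0.600 and 1.56 FPKM and then at 8.93, 8.71, 7.49 and 14.8 in control microglia, and at 1.87 to 2.58 and then 2.05 to 3.86 in WM repopulating cells (difference of the changes -2.41 ± 0.37, adjusted p = 0.0074). Lig1 was at 3.97 to 5.22 FPKM and then at 3.15 to 5.64 in WM repopulating cells (-2.18 ± 0.33, adjusted p = 0.0074), against the control values above. Gmnn, geminin, an inhibitor of replication licensing, went from 2.89, 2.68 and 0.797 FPKM to 18.3, 17.2, 15.7 and 21.6 in control microglia and from 4.30 to 10.5 to 6.4 to 13.2 in WM repopulating cells (-2.16 ± 0.42, adjusted p = 0.032). For these 3 genes the 24 hr libraries of the 2 cell groups did not overlap.

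The remaining genes with a lower change in WM repopulating cells were Cenpk and Zwilch of the kinetochore (-1.97 and -1.46), Tk1, thymidine kinase (-1.93), Stmn1, which destabilises microtubules (-1.56), Chek1, the checkpoint kinase (-1.35), and Hspd1 (-0.93). Chek1 was at 0.0876, 0.299 and 0.0917 FPKM and then at 2.60, 3.55, 2.70 and 4.05 in control microglia, and at 0.0378 to 0.189 and then 0.369 to 0.779 in WM repopulating cells. Ier2, an immediate early gene, was at 603, 532 and 588 FPKM and then at 424, 489, 454 and 250 in control microglia, and at 552 to 749 and then 1015 to 1425 in WM repopulating cells (1.44 ± 0.26, adjusted p = 0.023). Its own decrease in control microglia (-0.55, adjusted p = 0.044) was lost in most alternative fits and was -0.33 without 24 hr replicate 4. Myo18b, a myosin, was at 4.55, 3.88 and 3.54 FPKM and then at 0.749, 0.641, 0.739 and 0.574 in control microglia, while WM repopulating cells were already at 0.0776 to 0.475 at 0 hr (1.30 ± 0.22).

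Over the 30 genes of DNA replication the median change was 1.53 in control microglia and 0.47 in WM repopulating cells, and the median difference was -1.21, with 2 members (Lig1 and Tk1) past the test. Heat shock chaperones had medians of 0.82 and -0.11 and mitotic genes of 0.91 and -0.13, with 1 member each past the test (Hspd1 and Stmn1). For interferon-stimulated genes the medians were 1.38 and 1.31, for homeostatic genes -0.88 and -0.82, and no member of either list passed the test of the difference. Since only 0.0867% of all genes passed it, the lack of such members in lists of 55 and 35 genes does not show that the changes were alike. The number of genes past it depended on single libraries, from 6 without 24 hr control replicate 1 to 24 without 24 hr control replicate 4.

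**Figure D5:**
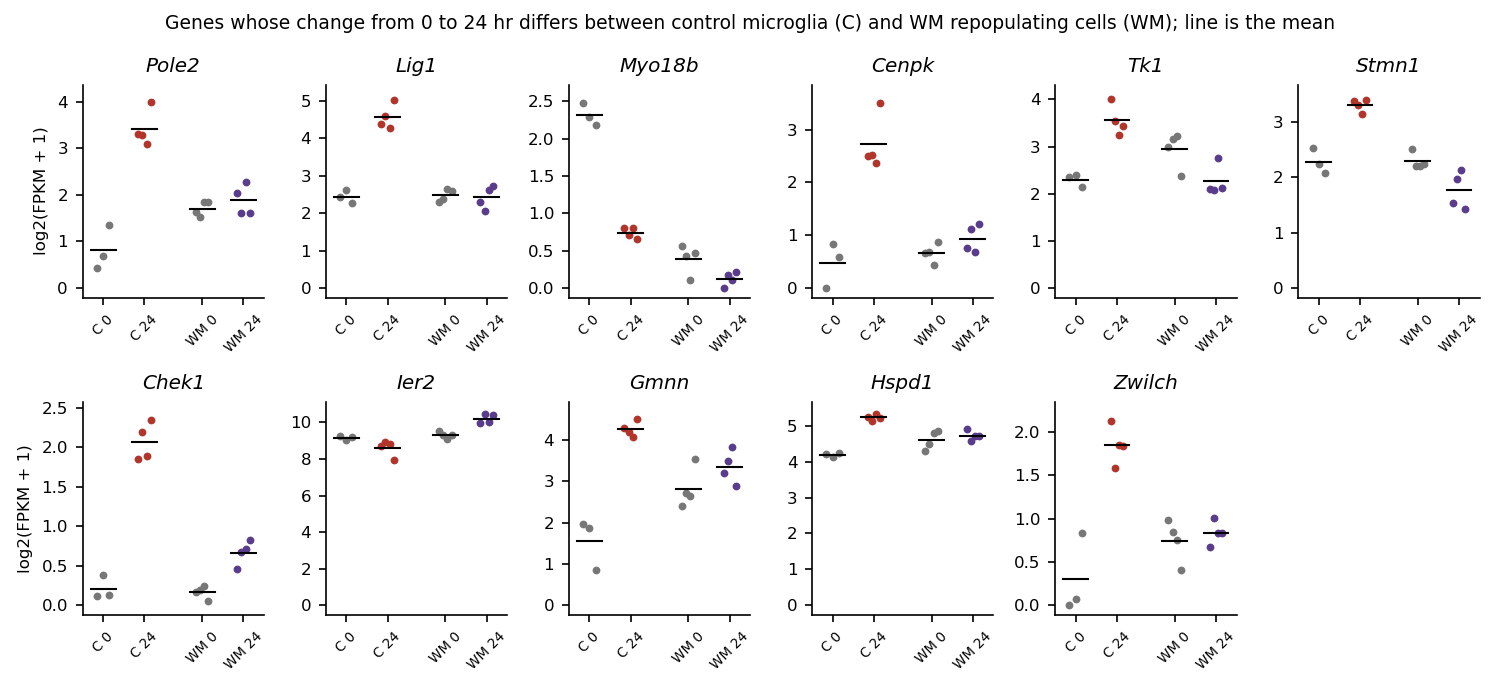
Level in log2(FPKM + 1) of the 11 genes whose change from 0 to 24 hr after LPS differed between control microglia (C) and WM repopulating cells (WM), 1 point per library with the group mean as a line. In 9 of them the rise from C 0 to C 24 exceeds the change from WM 0 to WM 24, and in Ier2 and Myo18b control microglia fall while WM repopulating cells rise (Ier2) or fall less (Myo18b).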

How the data were processed

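Sorted myeloid cells were profiled by RNA-seq in 24 libraries. Per the study's methods and the submitters' processing notes, the authors aligned reads with STAR (build mm10), counted them with featureCounts, and deposited FPKM values, which their methods call RPKM; the study states the version and options of STAR, while versions of the other tools and the gene models used for counting are not given in the sources used here. The labels and the study's methods describe different library preparations, and which applies was not settled. FPKM does not correct for library composition, so a few very abundant genes can move all others.

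Groups were taken from sample titles, and 0 columns of per-sample values were left unmapped. The table holds 15285 genes. The filter on low values asked for an FPKM of 1 or more in 3 or more of the 24 libraries and kept 12684 genes, of which 79 have no symbol. Read totals were recovered from the whole-read steps of FPKM, which 99.5% of 2965 low genes gave within a tolerance of 0.001. No libraries held identical values (0 pairs).

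log2(FPKM + 1) was fitted with limma 3.58.1 (R 4.3.3; lmFit, and eBayes with a trend) over 6 groups and all 24 libraries, with Benjamini-Hochberg adjustment over all genes tested and calls at an adjusted p under 0.05. Errors on log2 fold changes are SE of that fit. An exact permutation test of 3 against 4 libraries cannot pass that threshold and was not used. The fit was tested on simulated data. Tables and plots were made with Python 3.11.15, pandas 2.3.3, numpy 2.4.6 and matplotlib 3.10.9. Promoter windows are RefSeq sequence of GRCm38.p6.

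The libraries, lists and rules were chosen with earlier results of these data known. Named genes were the 12 largest changes in each direction among calls whose libraries do not overlap, the key genes, the 4 largest calls and the most abundant member of each list, the 8 largest differences from 6 hr in each direction, and the 6 largest opposite changes in each direction; the genes that differ from WM repopulating cells, S100a8, Ighm, the marker sums without single members, and members listed by name were chosen after their values were seen. Alternatives were another pseudocount, filter, scaling, variance trend, set of libraries, fold limit, a replicate block, and leaving out each library. Some items are not reported here.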

Additional observations from a re-analysis of the deposited data

Results flagged for a closer look

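In 20 of 145 groups of 4 values at 24 hr examined, 1 library lay further from the others than Dixon's critical value, where chance flags about 1 in 20. Replicate 4 was the library apart in 11 of them, replicate 3 in 4, replicate 2 in 3 and replicate 1 in 2.

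Replicate 4 was the lowest for Tmem119 (556 FPKM, others 1790 to 1986), C1qa (3070, others 8575 to 9339), Bcl3 (7.68, others 24.8 to 28.3), Cry1 (0.38, others 2.65 to 3.09) and the summed oligodendrocyte markers (22.9, others 49.97 to 55.3). It was the highest for Il12b (8.90 FPKM, others 3.50 to 4.25), Hyou1 (47.3, others 17.9 to 19.7), Hsph1 (53.8, others 26.6 to 29.6), Hsp90ab1 (1580, others 1121 to 1137), Gins1 (49.1, others 25.1 to 27.4) and Cenpk (10.3, others 4.17 to 4.74). Replicate 3 was the lowest for Msr1 (30.7 FPKM, others 60.3 to 64.9), Plin2 (97.0, others 155 to 165) and Cxcl10 (42.2, others 59.8 to 60.2), and the highest for Cd209a (2.30, others 0 to 0.241). Replicate 2 was the highest for Oas1a (50.9 FPKM, others 29.3 to 31.1), Lrg1 (378, others 117 to 132) and Cd300lf (82.5, others 37.4 to 43.9). Replicate 1 was the highest for Ccl22 (43.1 FPKM, others 4.79 to 7.79) and Nr1h3 (36.8, others 19.1 to 21.9).

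The change from 0 to 24 hr differed between WM repopulating cells and control microglia by a limma interaction term at 11 genes. On the log2 scale the change in WM repopulating cells lay below that in control microglia, as a smaller rise or a decrease in the mean, for Pole2 (-2.41), Lig1 (-2.18), Gmnn (-2.16), Cenpk (-1.97), Tk1 (-1.93), Stmn1 (-1.56), Zwilch (-1.46), Chek1 (-1.35) and Hspd1 (-0.93), while the difference was positive for Ier2 (1.44), whose mean went up in WM repopulating cells, and Myo18b (1.30), which fell less there from a level already near 0.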

How the results depend on the processing

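Calls at 24 hr against 0 hr numbered 1142 higher and 841 lower with only the groups compared in the fit, and 1387 and 1380 with quantile normalization, which made higher calls 50.1% of all calls where they had been 56.8%. Leaving out 1 library gave 1129 to 1429 higher and 805 to 1082 lower. No call turned direction in any of these fits. A fold limit of 1 on the log2 scale left 1062 DEGs, 665 higher and 397 lower. The number of genes differing from WM repopulating cells was 6 with a pseudocount of 0.1 (1 higher and 5 lower), 17 with only the groups compared (5 higher), and 6 to 24 with 1 library left out (1 to 10 higher, 4 to 14 lower). It was highest without control 24 hr replicate 4, and lowest without control 24 hr replicate 1 or WM 24 hr replicate 1, 2 or 4. The causes were not tested.

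Replicate numbers did not pair the samples, since deviations of same-numbered 0 hr and 24 hr libraries correlated at -0.10, -0.097 and 0.10. A replicate block gave 1439 higher and 1036 lower calls at 24 hr, and 6 genes differing from WM repopulating cells (1 higher, 5 lower). C1qa (main value -0.02) changed sign to 0.065 under the replicate block, and ranged from -0.16 to 0.37 with 1 library left out, being above 0 without 0 hr replicate 2 or 3 or 24 hr replicate 4.

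Of 132 named genes under 15 alternatives each, 1933 of 1980 values kept direction and side of the threshold, 29 lost the call, 14 gained it and 4, all of C1qa, changed sign. The 14 genes that lost a call in at least 1 alternative include Tmem119, Csf1r, Cebpb, Mki67, Cry1 and Ier2. Depth limits genes under about 0.2 FPKM.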
